A study of Mus musculus with 4 samples.

Results

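The semaphorins, the plexins, the Eph receptors and the ephrins are guidance genes, and every gene symbol of these 4 families in the count table was examined here in the E10.5 mouse heart. The genes were picked by symbol alone, as those of the form *Sema*, *Plxn*, *Epha*, *Ephb*, *Efna* or *Efnb* followed by the number and letter of the member. This gave 51 of the 32285 genes, namely 20 semaphorins, 9 plexins, 14 Eph receptors and 8 ephrins. Hearts of control embryos (Tie2 fl/fl, 2 libraries, numbered 5 and 7) were compared with hearts of *Tie2-cko* embryos (Nfatc1Cre;Tie2 fl/fl, 2 libraries, numbered 6 and 8) by droplet-based single-cell RNA sequencing. The control and mutant embryos were littermates of mixed strain (129 with C57/BL6), embryos of either sex were used, and all 4 libraries carry the floxed *Tie2* allele. *Tie2-cko* carries in addition a knock-in Cre at *Nfatc1*, a gene of the endocardium, so that deletion is directed to endocardial cells (EdCs) and their descendants and not to all endothelial cells. Each captured transcript carries a unique molecular identifier (UMI), and the deposited values are UMI counts per gene and cell. The question put to the data was in which cell types these genes are transcribed and whether their transcripts differ between the genotypes.

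Semaphorins are secreted or membrane-bound ligands, and plexins are their receptors. Class 3 semaphorins are secreted and mostly need neuropilins (*Nrp1*, *Nrp2*) as co-receptors, whereas *Sema3e* can bind *Plxnd1* directly. Ephrins are held at the cell surface, by a lipid anchor in the A class and by a transmembrane stretch in the B class, and bind Eph receptor tyrosine kinases on a neighbouring cell. In the embryo both systems guide growing axons and vessels, and they take part in septation of the outflow tract, in the division between arteries and veins and in the formation of the endocardial cushions.

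The stretch just upstream of the transcription start is given for 5 members, which were chosen after their levels had been seen because each stood out in a different compartment. *Plxnd1*, *Efnb2* and *Ephb4* had their highest levels in endothelial cells, *Epha3* in cushion mesenchyme and *Sema3d* in the epicardium. The sequences run 5′ to 3′ on the strand of the gene and end at the base before the RefSeq start on GRCm38.p6. Capitals mark the GC box GGGCGG or its reverse complement CCGCCC, a motif bound by factors of the SP family. The windows are chr6:115995006-115995255 on the minus strand for *Plxnd1*, chr8:8661243-8661492 on the minus strand for *Efnb2* and chr5:137349859-137350108 on the plus strand for *Ephb4*. Those of *Epha3* and *Sema3d* are chr16:63864176-63864425 on the minus strand and chr5:12382916-12383165 on the plus strand.
Plxnd1: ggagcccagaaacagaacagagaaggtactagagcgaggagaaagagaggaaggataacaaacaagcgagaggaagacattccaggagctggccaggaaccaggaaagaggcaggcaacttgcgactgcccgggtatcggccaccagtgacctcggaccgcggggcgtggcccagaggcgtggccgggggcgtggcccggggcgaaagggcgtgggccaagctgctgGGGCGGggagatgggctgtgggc
Efnb2: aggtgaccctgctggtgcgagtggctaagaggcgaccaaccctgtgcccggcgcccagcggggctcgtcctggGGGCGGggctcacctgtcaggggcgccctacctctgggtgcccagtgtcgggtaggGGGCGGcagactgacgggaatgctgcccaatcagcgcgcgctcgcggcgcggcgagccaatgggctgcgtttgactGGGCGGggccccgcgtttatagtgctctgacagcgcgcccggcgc
Ephb4: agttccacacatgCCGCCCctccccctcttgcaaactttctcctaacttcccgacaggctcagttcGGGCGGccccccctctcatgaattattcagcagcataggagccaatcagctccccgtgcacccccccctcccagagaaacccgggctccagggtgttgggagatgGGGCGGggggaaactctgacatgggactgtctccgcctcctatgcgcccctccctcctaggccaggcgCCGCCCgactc
Epha3: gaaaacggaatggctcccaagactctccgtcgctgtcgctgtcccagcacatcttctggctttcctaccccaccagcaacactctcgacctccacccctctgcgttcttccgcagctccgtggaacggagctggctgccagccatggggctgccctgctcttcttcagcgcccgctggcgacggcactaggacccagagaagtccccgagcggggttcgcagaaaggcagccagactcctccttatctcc
Sema3d: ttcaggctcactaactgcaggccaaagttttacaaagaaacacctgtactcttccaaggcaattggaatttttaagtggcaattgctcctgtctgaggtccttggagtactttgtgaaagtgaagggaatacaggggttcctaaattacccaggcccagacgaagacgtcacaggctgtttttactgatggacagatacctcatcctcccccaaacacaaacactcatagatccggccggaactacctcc

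The *Ephb4* window held 4 GC boxes, that of *Efnb2* held 3 and that of *Plxnd1* held 1, while none was found in those of *Epha3* and *Sema3d*. Of the 51 members, 45 had a RefSeq window of 250 bases, and *Efnb3*, *Plxna1*, *Plxna4*, *Sema3b*, *Sema3f* and *Sema6a* were not matched. The GC box, searched on both strands, was present in 34 of the 45 (75.6%) against 42.7% of 17491 windows of protein-coding genes. The median GC content was 64.4% over the members and 55.2% over all protein-coding genes. Class 3 semaphorins ranged widely, from 40.8% in *Sema3a* and 46.8% in *Sema3d* to 78.4% in *Sema3c*, and held 2, 4 and 39 CpG dinucleotides, respectively. The windows of *Sema3a* (from chr5:13396534) and *Sema3c* (from chr5:17574566) lie inside their GENCODE M21 spans, which begin at 13125414 and 17574281. Both ends of this range thus come from RefSeq starts within the annotated gene. Other motifs were found in fewer of the member windows. The forkhead motif GTAAACA was in none of the 45 windows and in 2.58% of all windows. The ETS motif CCGGAAG was in 2 (4.44%) against 9.12%, and the GATA motif AGATAA was in 2 (4.44%) against 9.12%. The TEAD motif CATTCC was in 6 (*Plxnd1*, *Efnb2* and *Epha3* among them), which is 13.3% of members against 11.6% of all windows. The TATA motif TATAAA was in 1 (2.22%) against 12.4%. A match is a run of letters and not a shown binding site, and a missing match says only that these letters are not in the window.

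After filtering, 33419 cells remained, namely 10097 in library 5, 8449 in library 7, 5684 in library 6 and 9189 in library 8. The median cell held between 14898 and 25740 UMIs, the highest number being that of library 6. Between 12 and 29 barcodes were shared by any pair of libraries. Clusters were named from markers that included none of the 51 genes, as chamber EdCs (1567 cells), cushion EdCs (1370), vascular endothelial cells (vascular ECs, 335), cardiomyocytes (CMs, 12657), mesenchymal cells (MCs, 3070) and epicardial cells (1552). Each of these clusters held at least 6 markers of its list, and the names stand for clusters that resemble these cell types. The 6 types comprised 20551 of the 33419 cells, and statements on where a gene was highest cover these 6 types only. Libraries 5 and 6 held 535 and 558 foregut mesenchyme cells against 3 and 1 in libraries 7 and 8, so that the libraries of each genotype differed in the tissue they held. Vascular ECs differed between these libraries as well. Their summed level of foregut mesenchyme markers was 0.469 and 0.387 in libraries 5 and 6 and 0.0277 and 0.0472 in libraries 7 and 8. Levels are means over the cells of a library of UMIs per 10000 UMIs of the cell, and because they come from 3′ tags they are compared between cell types and not between genes. Red blood cells were assumed not to use these genes and served as an estimate of the background from free RNA. The highest level of any member in them was 0.0457 (*Plxnd1*), and only 2 members reached 0.02. Their median cell held 22799 to 60176 UMIs, more than that of each endothelial type in every library. The same amount of free RNA would thus give a higher level in endothelial cells.

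Of the 51 genes, 23 reached 0.1 UMIs per 10000 in at least 1 of the 6 cell types in every library. These were 6 semaphorins, 6 plexins, 4 Eph receptors and 7 ephrins. At the other end, *Epha6*, *Epha8*, *Epha10*, *Sema4a* and *Sema4f* stayed under 0.01 in all 6 cell types of every library, below the highest level of free RNA. Among the 23, the cell type with the highest level was the same in all 4 libraries for 18. It was the epicardium for 7 (*Efna2*, *Efna5*, *Efnb1*, *Plxna4*, *Plxnb1*, *Plxnb2*, *Sema3d*), MCs for 4 (*Efna4*, *Epha3*, *Epha4*, *Plxna2*), vascular ECs for 3 (*Efnb2*, *Ephb4*, *Sema4c*), cushion EdCs for 2 (*Plxnc1*, *Sema6a*) and CMs for 2 (*Efnb3*, *Sema3c*). No member at this level was highest in chamber EdCs in every library.

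**Figure D1:**
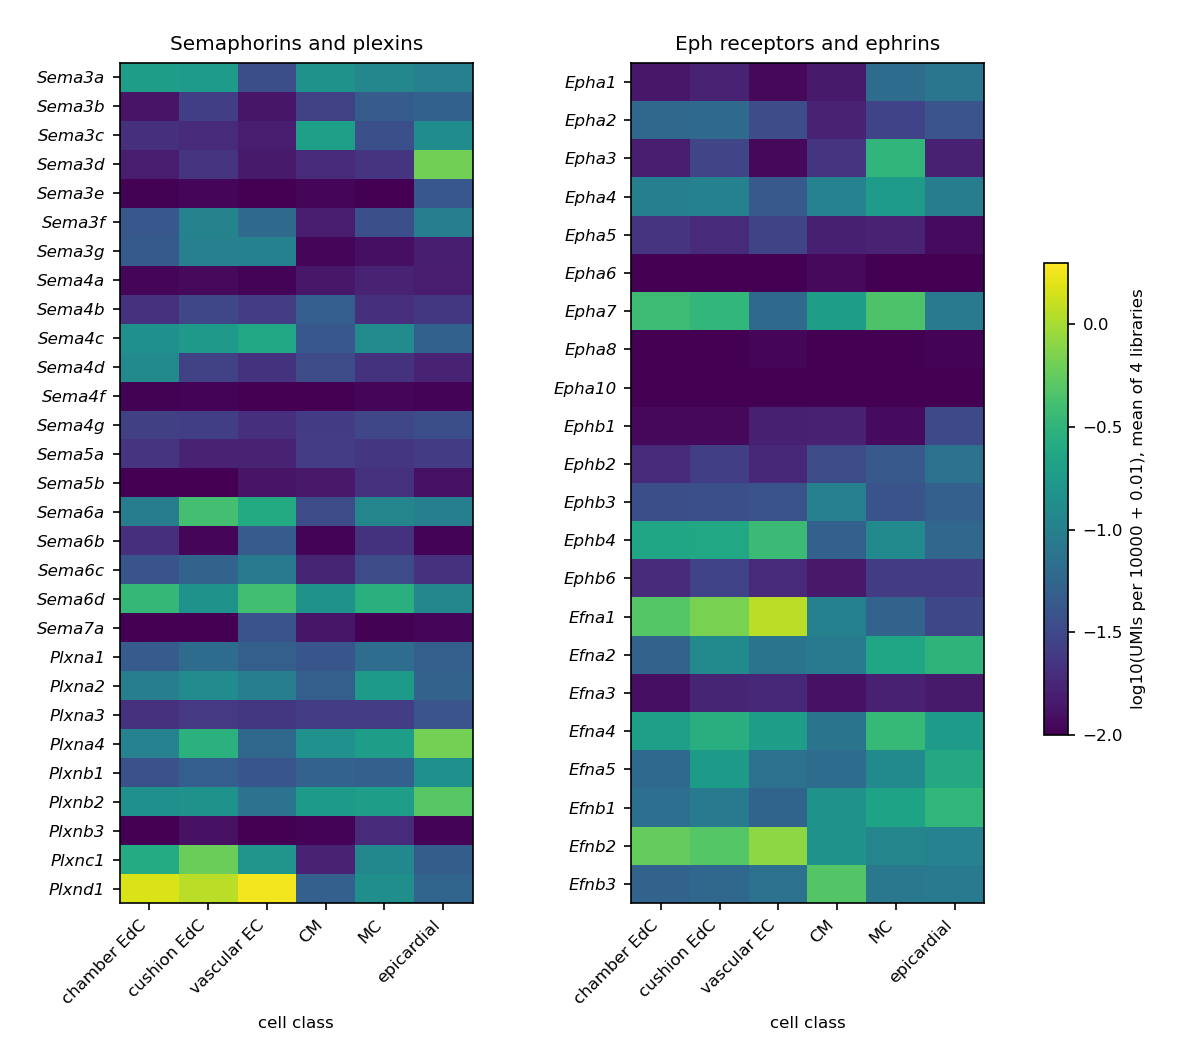
Level of all 51 genes (rows) in 6 cell types (columns), as log10 of UMIs per 10000 plus 0.01, averaged over 4 libraries. *Plxnd1* is bright in the 3 endothelial columns (1.48, 1.14 and 1.81 UMIs per 10000) and lower elsewhere, whereas *Sema3d*, *Epha3* and *Efnb3* are each bright in a single column.

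Among the secreted class 3 semaphorins, *Sema3d* was highest in epicardial cells and *Sema3c* in CMs, while *Sema3a* was present in both EdC types and in CMs. *Sema3d*, which acts on endothelial and neural crest cells, was an epicardial transcript. The level there was 0.567 UMIs per 10000 in library 5 and 0.600 in library 7, both control, against 0.647 in library 6 and 0.747 in library 8, both *Tie2-cko*, whereas no other of the 6 cell types exceeded 0.0193 in any library. The log2 fold change of epicardial cells over MCs was 5.67 ± 0.11 (SE; adjusted p = 4.56e-18). *Sema3e*, the ligand of *Plxnd1*, was found in epicardial cells as well, with 20, 39, 23 and 48 UMIs in libraries 5, 7, 6 and 8. MCs held no *Sema3e* UMI in 4 libraries. With the floor set at 3 UMIs over all MCs, the epicardial level was at least 54.3-fold higher. *Sema3c*, which is required for division of the outflow tract, was highest in CMs, at 0.135 and 0.208 in the control and 0.154 and 0.252 in the *Tie2-cko* libraries. Epicardial cells followed with 0.116 to 0.126, a range that lies below every CM value. The 3 endothelial types held 0 to 10 *Sema3c* UMIs each per library. *Sema3a*, best known as a repellent of axons, stood at 0.180 ± 0.0160 in chamber EdCs, 0.178 ± 0.0214 in cushion EdCs and 0.137 ± 0.0133 in CMs (SD, n = 4 libraries). It was lowest in vascular ECs at 0.0258 ± 0.0238, and the log2 fold change over EdCs was -2.14 ± 0.32 (SE; adjusted p = 0.000343).

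The membrane-bound semaphorins differed between chamber and cushion EdCs. *Sema6a*, a ligand of class A plexins, was highest in cushion EdCs, with 0.403 and 0.334 in the control and 0.504 and 0.355 in the *Tie2-cko* libraries. Chamber EdCs held between 0.0530 and 0.124, so that the ranges did not meet, and the log2 fold change of chamber over cushion EdCs was -2.16 ± 0.14 (adjusted p = 5.62e-09). Vascular ECs held 0.244 ± 0.0587 (SD, n = 4 libraries), every value below every cushion EdC value, and their difference from EdCs as a whole was not called (0.34 ± 0.13, adjusted p = 0.0949). *Sema4d*, a ligand of *Plxnb1*, had the opposite pattern. Its chamber EdC levels were 0.123 and 0.0954 in the control and 0.163 and 0.0843 in the *Tie2-cko* libraries, against at most 0.0267 in cushion EdCs. The log2 fold change was 2.65 ± 0.21 (adjusted p = 4.57e-08). *Sema6d*, which takes part in chamber formation through *Plxna1*, was likewise higher in chamber EdCs (0.330 ± 0.0546) than in cushion EdCs (0.138 ± 0.0173; log2 fold change 1.40 ± 0.11, adjusted p = 8.36e-08), and reached 0.279 ± 0.0129 in MCs. *Sema7a*, the ligand of *Plxnc1*, had no UMI in either EdC type, and vascular ECs held 4 and 0 UMIs in the control and 3 and 6 in the *Tie2-cko* libraries. *Sema4d* and *Sema7a* are named here after their values were seen.

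Among the plexins, *Plxnd1* was highest in endothelial cells, *Plxnc1* in cushion EdCs, *Plxna4* in epicardial cells and *Plxna2* in MCs. *Plxnd1*, the receptor of *Sema3e*, is used in the study as an EdC marker but was not used here to name cells. It stood at 1.64 and 1.32 in chamber EdCs of the control and at 1.64 and 1.30 in those of the *Tie2-cko* libraries. Vascular ECs held 2.14 and 1.24 in the control and 2.0 and 1.85 in the *Tie2-cko* libraries, and no value in CMs, MCs or epicardial cells exceeded 0.162. The log2 fold change of EdCs over CMs was 4.75 ± 0.08 (adjusted p = 2.73e-14). *Plxnc1*, a receptor of *Sema7a* named here after its values were seen, was highest in cushion EdCs, where it held 0.587 and 0.579 in the control and 0.746 and 0.483 in the *Tie2-cko* libraries. Every chamber EdC value, from 0.213 to 0.324, lay below these. Vascular ECs held 0.0996 to 0.214 and MCs 0.0749 to 0.139, whereas CMs held at most 0.0122. *Plxna4*, which forms receptors for *Sema3a* with neuropilins, was highest in epicardial cells at 0.646 ± 0.0679 (SD, n = 4 libraries). Within the endocardium it was higher in cushion (0.283 ± 0.0326) than in chamber EdCs (0.0950 ± 0.0174; log2 fold change -1.48 ± 0.11, adjusted p = 1.58e-08). *Plxna2*, a receptor found on neural crest cells of the outflow tract, was highest in MCs, at 0.147 and 0.136 in the control and 0.221 and 0.167 in the *Tie2-cko* libraries. It was not confined to them. The log2 fold change over CMs was 1.76 ± 0.12 in MCs and 1.05 ± 0.12 in EdCs (adjusted p = 2.04e-08 and 4.89e-06 by edgeR). No difference between vascular ECs and EdCs was called (-0.11 ± 0.24, adjusted p = 0.806 by edgeR).

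The neuropilins, which complete the receptors for class 3 semaphorins, were spread differently. *Nrp1* was present in all 6 cell types, from 0.358 in MCs of library 8 to 1.65 in vascular ECs of the same library. *Nrp2* was highest in vascular ECs, at 0.855 and 0.505 in the control and 1.04 and 0.442 in the *Tie2-cko* libraries, while EdCs as a whole held 0.0578 to 0.0884 (log2 fold change 3.09 ± 0.22, adjusted p = 7.62e-07). *Nrp1* and *Nrp2* were each called higher in vascular ECs than in EdCs by edgeR.

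Of the ephrins, *Efnb2* and *Efna1* were endothelial and *Efnb3* was myocardial. *Efnb2*, a marker of arteries, held 0.843 and 0.717 in vascular ECs of the control and 0.637 and 1.02 in those of the *Tie2-cko* libraries, and 0.479 to 0.626 in chamber EdCs. CMs held 0.113 to 0.170, and the log2 fold change of EdCs over CMs was 1.78 ± 0.06 (adjusted p = 1.45e-11). *Efna1*, a ligand of A-class Eph receptors, stood at 0.483 ± 0.0480 in chamber EdCs, 0.685 ± 0.0945 in cushion EdCs and 1.14 ± 0.462 in vascular ECs (SD, n = 4 libraries). Chamber and cushion values did not overlap, but library 6 held only 0.645 in vascular ECs, below its own cushion EdC value of 0.781. *Efnb3* held 0.438 and 0.425 in CMs of the control and 0.533 and 0.480 in CMs of the *Tie2-cko* libraries. No other of the 6 cell types exceeded 0.0902 in any library, and the log2 fold change of MCs over CMs was -3.32 ± 0.08 (adjusted p = 3.99e-13).

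Among the Eph receptors, *Ephb4* was endothelial and *Epha3* mesenchymal. *Ephb4*, the receptor of *Efnb2* and a marker of veins, stood at 0.213 ± 0.00843 in chamber EdCs, 0.227 ± 0.0133 in cushion EdCs and 0.357 ± 0.0487 in vascular ECs (SD, n = 4 libraries). No difference between chamber and cushion EdCs was called (log2 fold change -0.00 ± 0.09, adjusted p = 0.981), and vascular ECs were 0.43 ± 0.13 above EdCs (adjusted p = 0.0393). That call was lost with DESeq2 (adjusted p = 0.120) and without any 1 of the 4 libraries (adjusted p from 0.0510 without library 7 to 0.220 without library 6). *Epha3*, which takes part in the change of cushion endocardium into mesenchyme, held 0.309 and 0.369 in MCs of the control and 0.248 and 0.331 in those of the *Tie2-cko* libraries. Cushion EdCs held at most 0.0268, and MCs exceeded CMs by 4.77 ± 0.14 on the log2 scale (adjusted p = 3.13e-12). *Epha7*, another A-class receptor, was present both in MCs (0.446 ± 0.0219) and in chamber (0.368 ± 0.0738) and cushion EdCs (0.322 ± 0.0529), but was low in vascular ECs, at 0.0520 ± 0.0445.

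**Figure D2:**
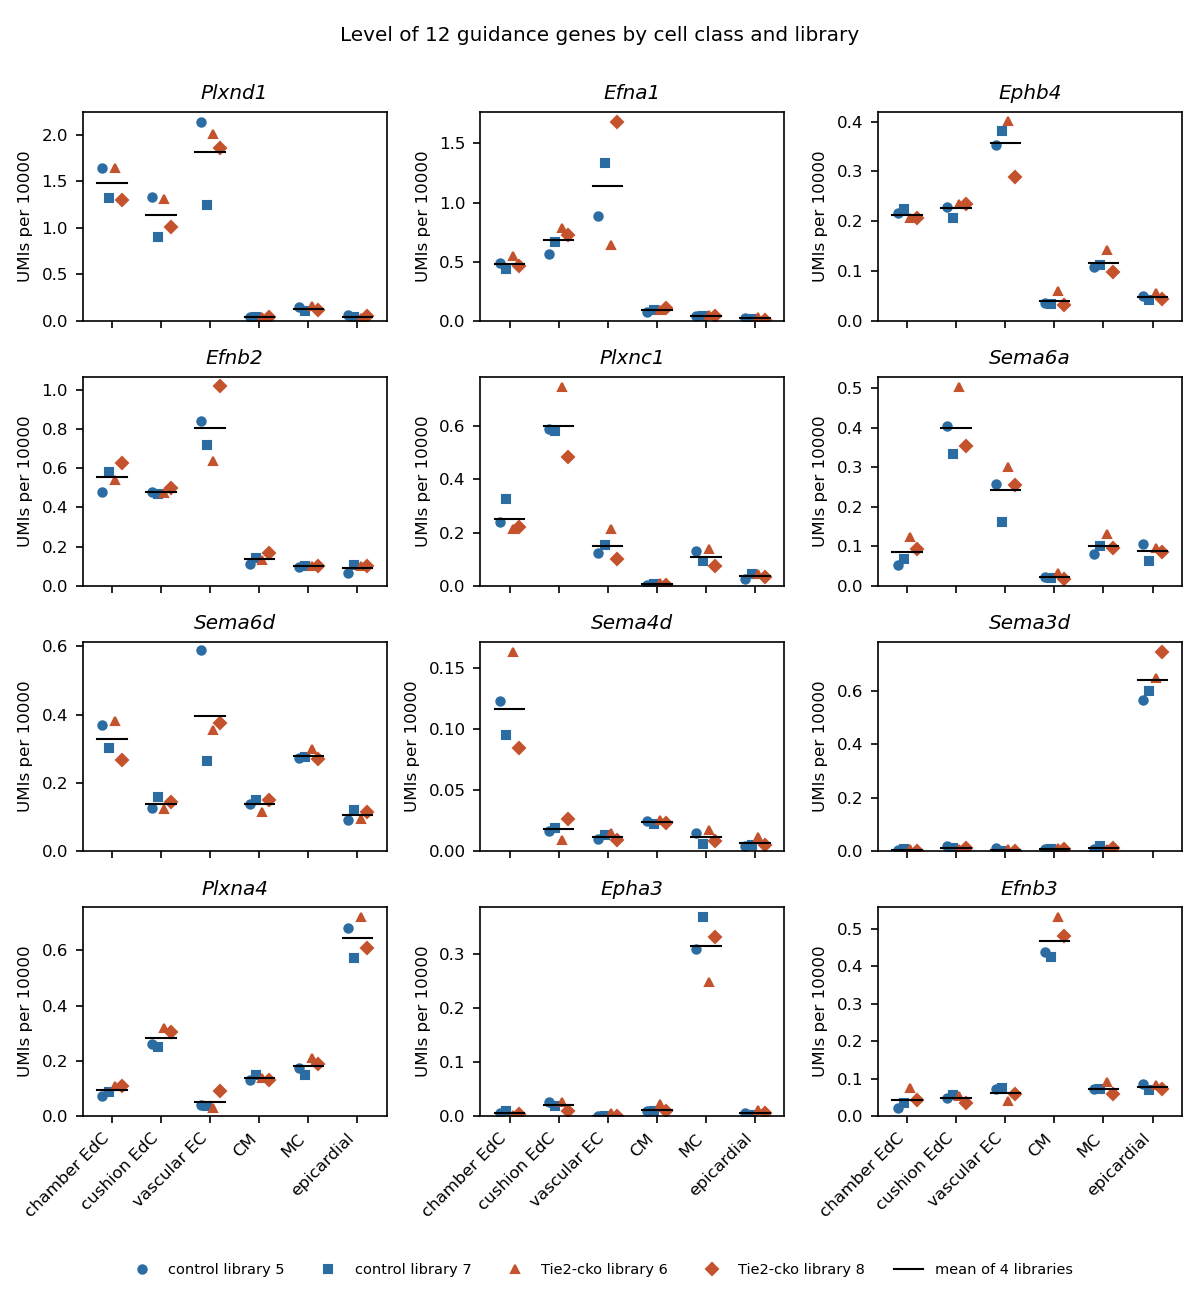
Level (UMIs per 10000, vertical axis) of 12 genes in 6 cell types, with 1 point for each library (blue, control; orange, *Tie2-cko*) and a line at the mean of 4 libraries. *Plxnd1*, *Efna1*, *Ephb4* and *Efnb2* have all endothelial points above all others. Of the 6 cell types, *Sema3d* (0.567 to 0.747) is high in epicardial cells alone.

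The 51 genes were set against all genes tested for each pair of cell types, with the library as a block. Between chamber and cushion EdCs 30 members could be tested, of which 6 were higher and 13 lower in chamber EdCs, where 25.2% of all genes were higher and 24.0% lower. Those higher were *Sema3a*, *Sema4d*, *Sema6d*, *Plxnd1*, *Epha2* and *Efnb2*. Of the 7 ephrins tested, 5 were lower in chamber EdCs (*Efna1*, *Efna2*, *Efna4*, *Efna5*, *Efnb1*), and of the 6 Eph receptors none was lower. Those on the same side in all 4 libraries were 17 of the 19 called, *Sema3a* and *Epha2* being the exceptions. DESeq2 called 11 of the 30, and 3753 of all 11529 genes against 5672 with edgeR. *Sema3a* lost its call under 7 of the alternatives, DESeq2 and the removal of library 5, 6 or 8 among them (adjusted p from 0.0518 to 0.212), and *Efnb2* lost its call under 5. Between vascular ECs and EdCs, 6 of 28 members were higher and 7 lower, against 10.2% and 9.87% of all genes. The higher ones were *Sema4c*, *Sema6d*, *Plxnd1*, *Ephb4*, *Efna1* and *Efnb2*, and the lower ones *Sema3a*, *Sema4d*, *Plxna4*, *Plxnb2*, *Plxnc1*, *Epha4* and *Epha7*. Without library 5 the number called was 8 and without library 8 it was 9, and *Plxnd1* was called in neither case (adjusted p = 0.117 and 0.110). The calls over all genes fell from 2306 to 1265 and 1996 in these fits.

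Differences between tissue layers were more common, among the members as among all genes. Between EdCs and CMs, 20 of 44 members were higher in EdCs and 16 lower, where 37.5% and 40.1% of all genes were. The members tested were not limited to the 23 that reached 0.1 in every library. *Sema4a*, called lower in EdCs, stayed under 0.01 in all 6 cell types, below the highest level of free RNA. Among the semaphorins 9 of 17 were higher in EdCs, *Sema6a* and *Sema3g* among them. *Sema3c* and *Efnb3* were among the lower genes, with log2 fold changes of -4.54 ± 0.13 and -3.99 ± 0.09. Between MCs and CMs, 26 of 44 were higher in MCs and 12 lower, against 37.6% and 38.9% of all genes. In that comparison 8 of 11 Eph receptors and 5 of 8 ephrins were higher in MCs. Between epicardial cells and MCs, 15 of 38 were higher in epicardial cells and 12 lower, against 31.2% and 30.3%. The median log2 fold change over the members tested was 0.24 for EdCs over CMs, 0.55 for MCs over CMs and 0.22 for epicardial cells over MCs, and over all genes it was -0.03, -0.01 and -0.01.

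The CMs and MCs each comprised several clusters, and the members differed among them. These clusters were built without the 51 genes, and are described by their leading genes with no test. *Sema3c* was concentrated in the CM cluster led by *Mybpc1*, *Bmp4* and *Rspo3*, at 0.592 and 0.722 in the control and 0.610 and 0.963 in the *Tie2-cko* libraries. The other CM clusters held at most 0.201. The same cluster held the most *Efnb2* among CMs (0.269 to 0.502) and less *Efnb3* (0.174 to 0.238) than the clusters led by *Cited1* and by *Myh7* (0.546 to 0.746). *Sema3a* was highest among CMs in the cluster led by *Nppa*, *Nppb* and *Bmp10*, genes of the trabecular layer, with 0.485 and 0.662 in the control and 1.14 and 0.634 in the *Tie2-cko* libraries. The value of 1.14 rests on 26 cells, and the other CM clusters held 0.0753 to 0.256. In the MCs, *Epha3* held 0.321 to 0.438 in the clusters led by *Rtn1* and by *Twist1* and at most 0.0538 in the cluster led by *Stmn4*, *Postn* and *Inhba*. *Plxna2* was the reverse, at 0.355 to 0.510 in the *Stmn4* cluster and at most 0.128 in the other two. The MC clusters that held *Epha3* and *Plxna2* thus differed. The *Nppa* cluster of *Sema3a* was singled out after its values were seen.

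**Figure D3:**
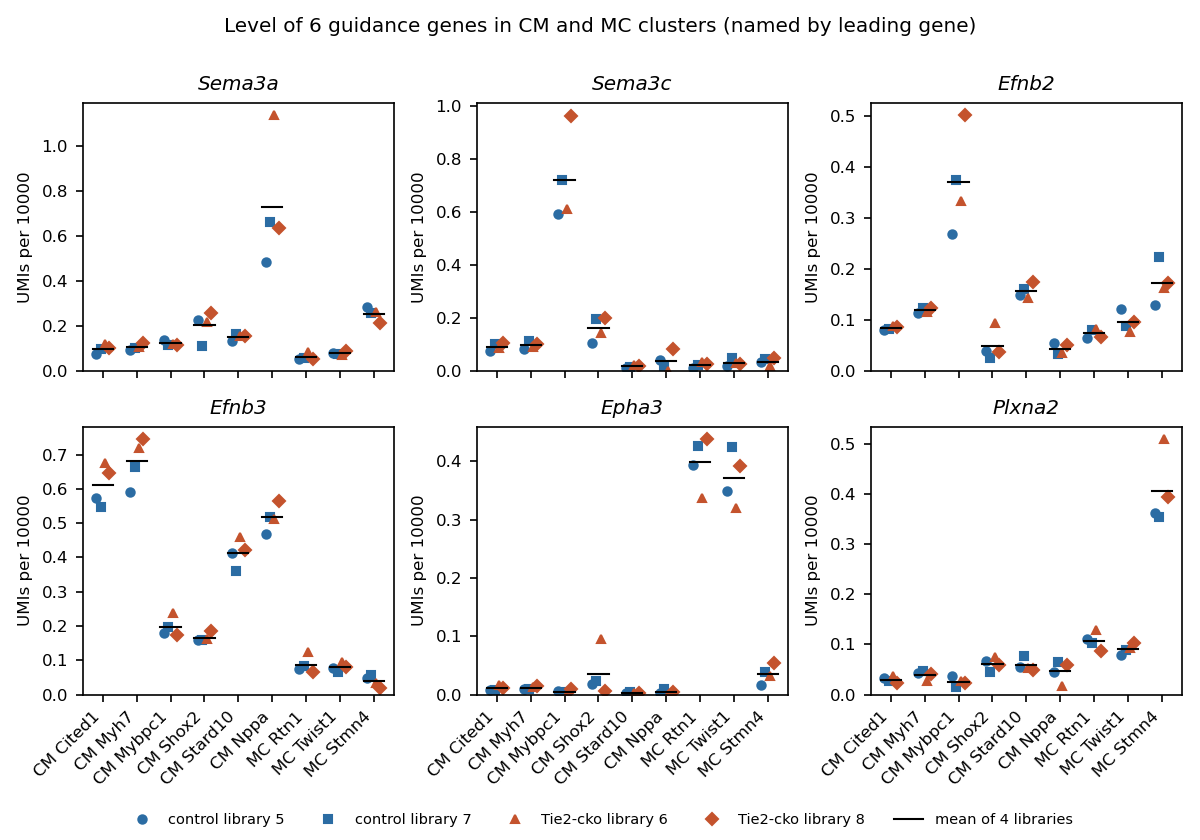
Level (UMIs per 10000) of 6 genes in 6 CM and 3 MC clusters, each named by its leading gene, with 1 point for each library (blue, control; orange, *Tie2-cko*) and a line at the mean. *Sema3c* peaks in the *Mybpc1* cluster (0.592 to 0.963), *Sema3a* in the *Nppa* cluster, and *Epha3* and *Plxna2* in different MC clusters.

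The genotype of the libraries was checked with *Tek*, which encodes TIE2. In chamber EdCs the control held 0.898 (library 5) and 1.00 (library 7), *Tie2-cko* held 0.131 (library 6) and 0.151 (library 8), and *Tek* fell by 2.48 ± 0.17 on the log2 scale (SE, adjusted p = 0.00435). In cushion EdCs it fell by 2.50 ± 0.28 (adjusted p = 0.0489). That call was lost with DESeq2 size factors (adjusted p = 0.0597), with more doublets removed (0.0557) and at clustering resolutions of 0.4 (1.00) and 1.2 (0.0587), while that in chamber EdCs was kept under all 13 alternatives (highest adjusted p = 0.0187). Vascular ECs held 0.640 and 0.707 in the control and 0.774 and 0.640 in the *Tie2-cko* libraries, with no separation of the genotypes. Markers of another cell type differed between the genotypes as well. The summed level of 5 red blood cell markers in chamber EdCs was 75.9 and 34.4 in the control and 12.9 and 12.3 in the *Tie2-cko* libraries, and in cushion EdCs it was 61.2 and 33.8 against 12 and 10.95. Its part in the differences given here was not tested.

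No guidance gene was called between the genotypes in chamber EdCs at an adjusted p under 0.05 by edgeR, where 0.0087% of 11488 genes were called, *Tek* alone. DESeq2 called none of the members either and 25 genes in all. At an unadjusted p under 0.05, 4 of the 29 members tested passed with edgeR and 2 with DESeq2, against 6.33% of all genes with edgeR and 336 of 11488 genes with DESeq2. *Epha7* was higher in both *Tie2-cko* libraries, at 0.394 and 0.461 against 0.303 and 0.316 in the control (log2 fold change 0.52 ± 0.14, unadjusted p = 0.00573 and adjusted p = 0.505 by edgeR). *Sema6a* held 0.124 and 0.0946 against 0.0530 and 0.0693 (0.84 ± 0.23, unadjusted p = 0.00675 and adjusted p = 0.520 by edgeR). *Plxna4* held 0.110 and 0.108 against 0.0735 and 0.0881 (0.48 ± 0.20, unadjusted p = 0.0441 and adjusted p = 0.758 by edgeR). *Epha5* was the gene with a lower value in *Tie2-cko*, and rests on 4 and 4 UMIs against 15 and 14. The genotypes did not overlap for any of these 4 genes, which was a condition for naming them, and none passed the adjustment. In red blood cells *Epha7* held at most 0.00846 UMIs per 10000 and *Epha5* held none.

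Summed and normalized counts separated the genotypes for 13 of the 29 members, 9 higher and 4 lower in *Tie2-cko*, while they separated them for 36.7% of all genes tested. The median log2 fold change over the 29 was 0.15, and over all genes it was 0.0037. With a block that sets libraries 5 and 6 against 7 and 8, which the labels do not give, *Epha7* (adjusted p = 0.00498) and *Sema6a* (adjusted p = 0.0159) were called, among 565 genes in all. *Plxnd1*, with 1.64 and 1.32 against 1.64 and 1.30, differed by 0.06 ± 0.17 on the log2 scale, *Ephb4* by -0.05 ± 0.16, *Efna1* by 0.01 ± 0.15, *Sema6d* by 0.03 ± 0.16 and *Efnb2* by 0.24 ± 0.16. The 22 members that were not tested in chamber EdCs did not pass the filter on low counts.

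**Figure D4:**
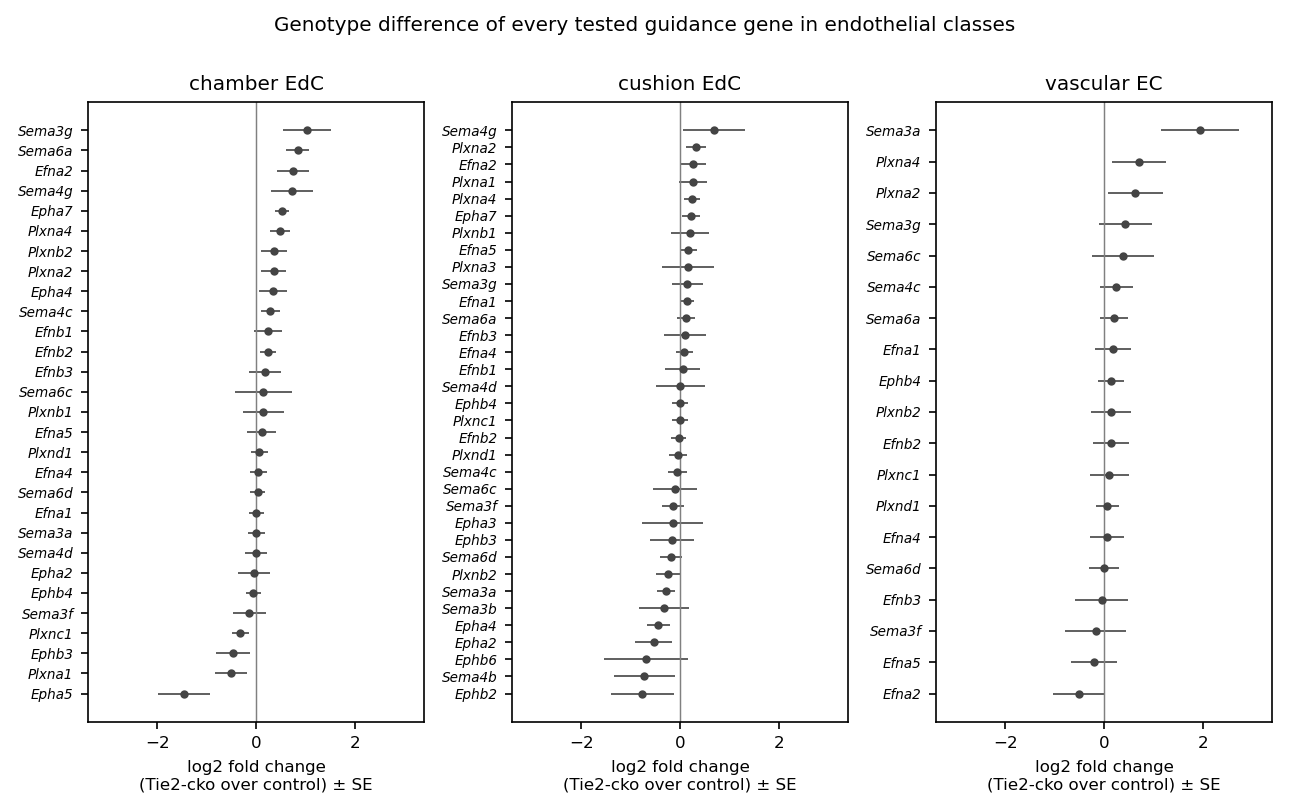
Log2 fold change of *Tie2-cko* over control (horizontal axis, bars are ± SE) for each guidance gene tested in chamber EdCs, cushion EdCs and vascular ECs, ordered by value. In chamber EdCs 22 of 29 points lie to the right of 0 (19 with DESeq2), with a median of 0.15 against 0.0037 over all genes tested. In cushion EdCs 18 of 34 points do (median 0.0037 against 0.0028), and in vascular ECs 15 of 19 (median 0.14 against 0.0066). None in the 3 panels passed an adjusted p of 0.05.

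In cushion EdCs, 34 members were tested and none was called by edgeR or DESeq2, nor did any pass an unadjusted p under 0.05. Of all genes 0.0262% were called and 1.75% had an unadjusted p under 0.05. The genotypes were separated for 12 of the 34 members, 8 higher and 4 lower in *Tie2-cko*, and for 29.3% of all genes. *Epha7* held 0.373 and 0.350 against 0.313 and 0.252 in the control (0.23 ± 0.18), and *Sema6a* 0.504 and 0.355 against 0.403 and 0.334 (0.12 ± 0.18). In vascular ECs 19 members were tested. None was called by either tool, 0.0% of all genes were called by edgeR and 0.758% had an unadjusted p under 0.05. The exception at the unadjusted level was *Sema3a*, with 5 and 0 UMIs in the control and 20 and 10 in the *Tie2-cko* libraries (1.94 ± 0.78, unadjusted p = 0.0410 and adjusted p = 0.999 by edgeR). Since control library 7 held no UMI in 67 cells, this fold change depends on the prior count and gives no bound.

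**Figure D5:**
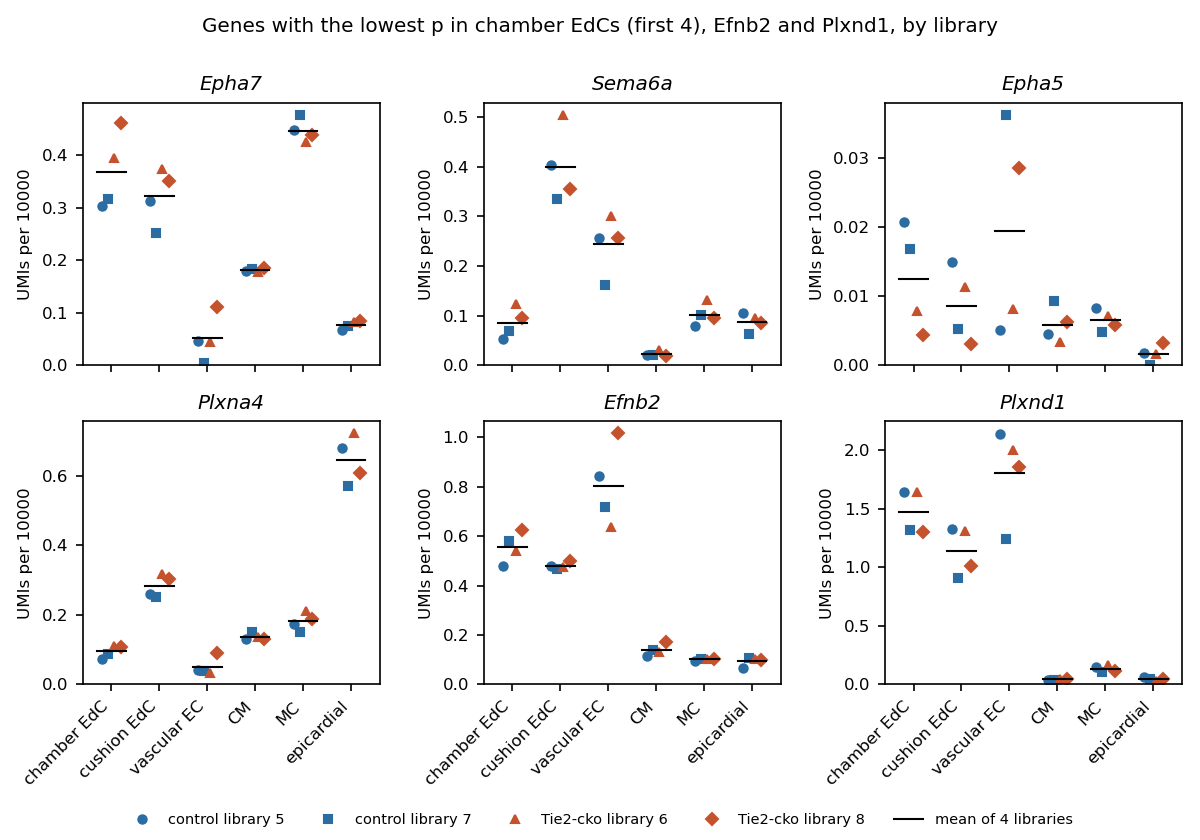
Level (UMIs per 10000) of *Epha7*, *Sema6a*, *Epha5*, *Plxna4*, *Efnb2* and *Plxnd1* in 6 cell types, with 1 point for each library (blue, control; orange, *Tie2-cko*) and a line at the mean. In chamber EdCs the orange points of *Epha7* (0.394 and 0.461) lie above the blue ones (0.303 and 0.316), and in CMs all 4 lie between 0.178 and 0.185.

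Outside the endothelium no member was called either. In CMs, 44 members were tested and none was called by edgeR or DESeq2, against 0.0% of all genes by edgeR, and none had an unadjusted p under 0.05, against 0.396%. *Epha7* differed by -0.03 ± 0.12 on the log2 scale, *Efnb3* by 0.14 ± 0.10 and *Sema3c* by 0.17 ± 0.35. In MCs, 41 members were tested, again with no call by either tool and with 0.0% of all genes called by edgeR. *Plxna2* had an unadjusted p of 0.0231 (0.43 ± 0.15, adjusted p = 1.00 by edgeR), 1 member of 41 against 1.0% of all genes. *Epha3* differed by -0.30 ± 0.21. In epicardial cells, where 37 members were tested and none was called by either tool, 0.042% of all genes were called and 1.05% had an unadjusted p under 0.05, with no member among the latter. *Sema3d* held 0.567 and 0.600 in the control and 0.647 and 0.747 in *Tie2-cko*, a difference of 0.24 ± 0.16.

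Whether the genotype difference in EdCs exceeded that in CMs was tested directly. None of 45 members was called by edgeR or DESeq2, where 0.00634% of all genes were by edgeR, and 6 had an unadjusted p under 0.05 (*Plxna4*, *Epha7*, *Plxna2*, *Sema6a*, *Sema4g* and *Efna2*), against 8.45% of all genes. The smallest was that of *Plxna4*, with a difference of 0.57 ± 0.13 on the log2 scale (unadjusted p = 0.00102 and adjusted p = 0.272 by edgeR). It was called without the filter on low counts (adjusted p = 0.0158), without library 5 (0.0182) and without library 8 (0.0486).

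The genes that act downstream of these receptors were taken as lists. Of 19 plexin effectors, 18 were tested in chamber EdCs, and of 20 effectors of Ephs and ephrins, 19. None was called between the genotypes in any of the 6 cell types by edgeR. At an unadjusted p under 0.05, chamber EdCs held 2 plexin effectors (*Rras* and *Rnd1*) and 2 Eph and ephrin effectors (*Tiam1* and *Pdlim1*), all higher in *Tie2-cko*, against 6.33% of all genes in either direction. *Tiam1*, an exchange factor for RAC1 named after its value was seen, held 0.308 and 0.249 against 0.178 and 0.121 in the control (1.01 ± 0.22, unadjusted p = 0.00150 and adjusted p = 0.285 by edgeR). *Nrp2* held 0.132 and 0.131 against 0.0783 and 0.0951 (0.83 ± 0.21, unadjusted p = 0.00391 and adjusted p = 0.443 by edgeR). Between cell types more of these genes were called. In EdCs against CMs, 17 of 19 Eph and ephrin effectors and 12 of 19 plexin effectors were higher in EdCs, where 37.5% of all genes were. In chamber against cushion EdCs, 13 of 19 and 11 of 17 were lower in chamber EdCs, where 24.0% of all genes were.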

How the data were processed

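The 4 libraries were made on a 10x droplet system from the dissected heart region at E10.5, which held foregut and liver-like cells as well. The authors deposited UMI counts per gene and barcode without normalization, made with Cell Ranger 6.1.2 by the file headers (the methods name another version) on mm10 per the labels. The labels pair no libraries, and the methods give 2 hearts of each genotype from 1 litter, so p-values measure the spread between these libraries. Barcodes were kept from 500 genes and 1000 UMIs upwards if no more than 10% of the UMIs were mitochondrial, and the highest Scrublet scores (scanpy 1.11.5) were removed at 0.8% per 1000 barcodes. Seurat 5.3.0 clustered the cells on 2000 variable genes, with 30 principal components and a resolution of 0.8. The 51 genes and the genes acting with them were left out of the variable genes. Clusters with low UMI numbers were left unnamed.

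The counts of the cells of a type were added up within each library, and all genes were tested with edgeR 4.0.16 (quasi-likelihood, TMM, filterByExpr), with a threshold of 0.05 on Benjamini-Hochberg adjusted p. Standard errors are those of log2 fold changes. Contrasts of cell types had the library as a block. DESeq2 1.42.0, R 4.3.3 and Python were used for the alternatives and tables. For a single value, 2 against 2 libraries allow no exact permutation p below 0.333. The tests were checked on simulated data, where false calls took more than their nominal share in each comparison simulated. Calls near the threshold are thus less certain than their adjusted p. Only part of the changes put into the simulated data was recovered, and a smaller part between genotypes than between cell types. A gene not called between the genotypes is therefore not shown to be unchanged. Depth was 14898 to 25740 UMIs in the median cell of a library, and counting error is larger in the vascular ECs (67 to 99 cells) than elsewhere. Library 6 was the deepest and smallest.

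The genes, the lists and the tests were chosen with earlier results of these data known. Genes named are *Tek*, 12 members and 2 co-receptors long described in heart or vessels, members at least 3 times as high in 1 cell type as in every other in each library and at 0.1 or more, and members with an unadjusted p under 0.05 and no overlap in an endothelial genotype comparison. Others are said to be chosen after their values were seen or stand in lists. Spans of 15 members overlap a gene on the opposite strand in GENCODE M21, and that of *Ephb1* 1 on the same strand, where reads may be shared.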

Additional observations from a re-analysis of the deposited data

How the results depend on the processing

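The number of guidance genes called was recomputed with DESeq2 size factors, without the filter on low counts, with DESeq2, with a stricter cell filter, with more doublets removed, at resolutions of 0.4 and 1.2, with the 51 genes among the variable genes, and without each library. No genotype comparison within a cell type gained a call under these. With libraries 5 and 6 set as a block against 7 and 8, 2 members were called in chamber EdCs (*Epha7* and *Sema6a*) and none in the other 5 cell types. The labels and methods do not give which control library belongs with which *Tie2-cko* library, so this block of 1 library of each genotype was an alternative only. The count between chamber and cushion EdCs was 19, 11 with DESeq2 and 14 to 21 without 1 library. That between vascular ECs and EdCs was 13, and 8 to 12 without 1 library. The difference of the genotype effect between EdCs and CMs gave 1 call without the filter and 0 to 1 without 1 library. The other 142 alternative counts lay within 1.5 times of the count given. They include the genotype comparisons in which both counts were 0, where this rule was met without a ratio. Resolution 0.4 gave no vascular EC cluster and hence no value for it. Differences of named genes were followed only if called between cell types or at an unadjusted p under 0.05 by edgeR in a genotype test. None of these reversed its direction. Of the recomputed differences of named genes, 707 kept their side of the threshold, 39 lost a call and 5 gained one. The cause of these changes was not tested.

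Counts over all genes moved more. Between genotypes 1 gene was called in chamber EdCs, 155 without the filter, 25 with DESeq2, 4 with more doublets removed, 16 to 66 without 1 library and 565 with the block. In cushion EdCs 3 were called, 0 with DESeq2 size factors and at both other resolutions, 30 without the filter, 6 with DESeq2, 5 with the stricter cell filter, 7 to 14 without 1 library and 85 with the block. In vascular ECs 0 were called, 24 without the filter, 6 with DESeq2, 3 with more doublets removed, 0 to 68 without 1 library and 30 with the block. In CMs 0 were called, 2 with DESeq2, 0 to 10 without 1 library and 90 with the block. In MCs 0 were called, 22 without the filter, 9 with DESeq2, 0 to 18 without 1 library and 81 with the block. In epicardial cells 5 were called, 9 without the filter, 0 with more doublets removed, 6 to 19 without 1 library and 66 with the block. The difference between EdCs and CMs was called for 1 gene, 7 with DESeq2 or its size factors, 165 without the filter, 2 at resolution 1.2 and 31 to 334 without 1 library. Between chamber and cushion EdCs 5672 were called and 3753 with DESeq2, and between vascular ECs and EdCs 2306, and 1265 without library 5.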
